A study of Mus musculus with 9 samples.

Results

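Gene expression in the paraventricular nucleus (PVN) of mice given a high-fat diet together with minocycline (HFD+Mino) was compared with that of mice kept on chow (Control). The comparison was taken by group label alone and covers 3 HFD+Mino and 3 Control samples, which is 6 of the 9 samples in the series, across all expressed genes. The other 3 samples came from mice on the high-fat diet without the drug (HFD). Their values are given beside the others to show whether a gene also stood apart from Control without minocycline, and they enter the shared estimate of the spread. All mice were wild-type male C57BL/6 mice labelled as post natal day 35, which the methods give as the age at the start of the diets. Control mice ate chow with 16% of calories from fat for 12 weeks. HFD and HFD+Mino mice ate a diet with 60% of calories from fat for 12 weeks, and HFD+Mino mice drank minocycline at 40 mg per kg of body mass per day for the last 6 weeks. No chow group received the drug, so what the diet and what the drug did to HFD+Mino mice cannot be told apart in this comparison. Each sample was a tissue punch from a separate mouse that had not undergone metabolic testing. A punch holds all the cell types at its site, and in such bulk samples fewer cells of a type and less RNA per cell cannot be told apart.

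The PVN is a hypothalamic nucleus whose neurons make vasopressin, oxytocin, corticotropin-releasing hormone and thyrotropin-releasing hormone, and it controls pituitary secretion, autonomic outflow, food intake and energy use. Fat-rich diets are known to activate microglia, the resident immune cells of the brain, in the hypothalamus. Minocycline is a tetracycline antibiotic that enters the brain and is widely used in rodents to dampen microglial activation. Tetracyclines bind the bacterial ribosome and can also act on the mitochondrial ribosome, which descends from it. For these reasons the peptide genes of the PVN, microglial genes, insulin and autophagy genes, and the ribosomal and mitochondrial genes were described as groups.

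The tissue label was checked against PVN peptide genes, and 1 Control sample went against it. In CPM (counts per 1000000 of the TMM-scaled library, in the order of replicates 1, 2 and 3), Avp, the vasopressin gene, stood at 0.149, 157 and 989.8 in Control, 589, 1487 and 1984 in HFD and 28040, 22172 and 1217 in HFD+Mino. Oxt, the oxytocin gene, stood at 0.77, 427 and 1191 CPM in Control, 1400.1, 1364 and 1409 in HFD and 8904, 8692 and 1358 in HFD+Mino. Control replicate 1 thus held 6 and 31 counts of Avp and Oxt in a library of 42326213 counts, and no count of Otp, a transcription factor of PVN neurons. The same library stood out for genes of other sites, which were picked after their values were seen. Lmx1a, a transcription factor of the posterior hypothalamus and midbrain, had 779 counts in Control replicate 1 and 9 or fewer in every other sample. Slc6a3, the dopamine transporter gene, was at 44.5, 4.12 and 6.21 CPM in Control, and Mbp, a myelin gene, was at 17998, 3328 and 2055 CPM. Control replicate 2 held the most Pmch and Hcrt, peptide genes of the lateral hypothalamus: Pmch was at 390.4, 2559 and 21 CPM in Control and 34.4, 51.2 and 1.23 in HFD+Mino. Results that rest on Control replicate 1 are therefore given with and without it. What the place of each punch did to the comparison was not tested.

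**Figure D1:**
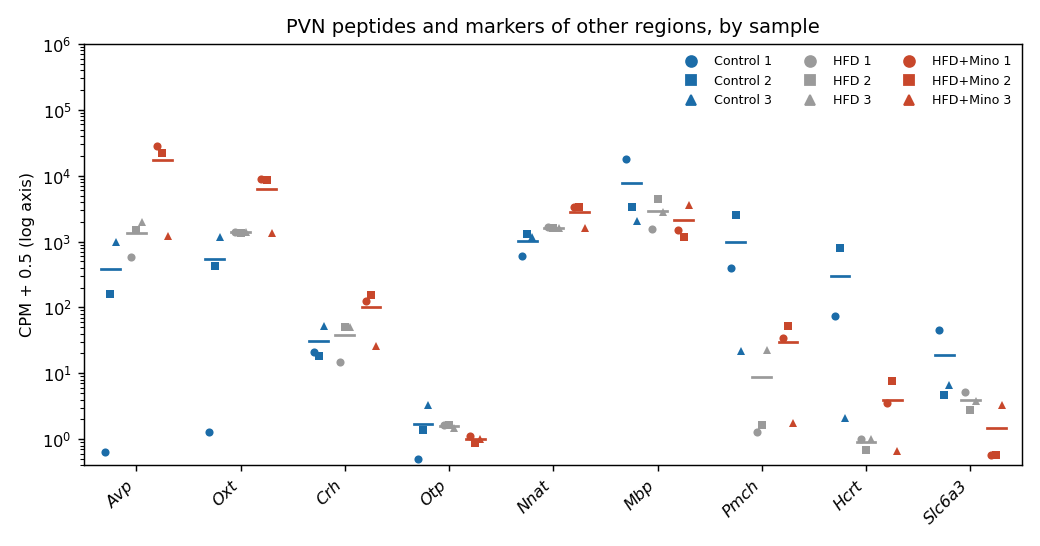
Levels of 9 genes in each of the 9 samples, as CPM plus 0.5 on a log axis; points are samples (marker shape gives the replicate number) and bars are group means. Control replicate 1 sits near the bottom for Avp, Oxt and Otp and at the top for Mbp and Slc6a3, and HFD+Mino replicate 3 sits close to Control replicate 3 for Avp and Oxt.

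The 6 libraries held between 30555331 and 42326213 counts, and 17344 genes passed the filter on low counts. The HFD+Mino samples were not alike. The root mean square log2 distance was 0.756 to 0.944 between HFD+Mino samples and 0.498 to 0.843 between Control samples, while HFD+Mino replicate 3 was 0.489 from Control replicate 2, the shortest distance between the groups. The mitochondrial genome took 2.46% ± 1.16 (SD, n = 3) of Control counts and 4.70% ± 1.5 (SD, n = 3) of HFD+Mino counts (exact permutation test, two-sided, p = 0.2). The mean exon length of the counted genes, weighted by counts, was 4874 ± 272 nt (SD, n = 3) in Control and 4225 ± 385 nt (SD, n = 3) in HFD+Mino (exact permutation test, two-sided, p = 0.1, the smallest that 3 against 3 can give).

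At the study's threshold (FDR under 0.01 and at least 1.5-fold), edgeR's quasi-likelihood test called 0 of 17344 genes, which is 0.0% of those tested, and the smallest Benjamini-Hochberg FDR was 0.132. At an unadjusted p under 0.05 there were 3697 genes (21.3%), of which 2200 were higher in HFD+Mino (12.7%) and 1497 were lower (8.63%). The 3 HFD+Mino samples lay above all 3 Control samples in 1550 genes (8.94%) and below all 3 in 1756 genes (10.1%). Other tests of the same counts did make calls at this threshold: DESeq2 called 271 genes, edgeR's likelihood ratio test 106 and limma voom with sample quality weights 0. The median change over all tested genes was -0.023 on the log2 scale.

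The number of called genes depended on the replicate numbers and on 1 HFD+Mino sample. Control and HFD+Mino samples with the same replicate number deviated from their group means together (correlations across genes from 0.194 to 0.395), so the numbers were also fitted as pairs, although no label says what they share. With the pairs as a block in the 6 samples, edgeR called 0 of 16776 genes at FDR under 0.01 and 166 (0.99%) at FDR under 0.05, 152 of them higher (0.906%) and 14 lower (0.0835%). With the block on these 2 groups inside the fit of all 9 samples, a setting added after seeing the data, 551 genes (3.18%) were called at FDR under 0.01, 465 higher (2.68%) and 86 lower (0.496%). Without HFD+Mino replicate 3, the sample nearest to Control, 1120 genes (6.28%) were called, 718 higher (4.03%) and 402 lower (2.25%). This last count included 422 of those 551 genes, 76.6% of the smaller set and 37.7% of the larger. Leaving out Control replicate 1 gave 0 calls and 3564 genes at an unadjusted p under 0.05. Of the 17344 genes of the planned test, 2174 were then higher and 1367 lower at that p. Since the planned test called none, single genes are given as higher or lower with their values and the unadjusted p of that test.

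**Figure D2:**
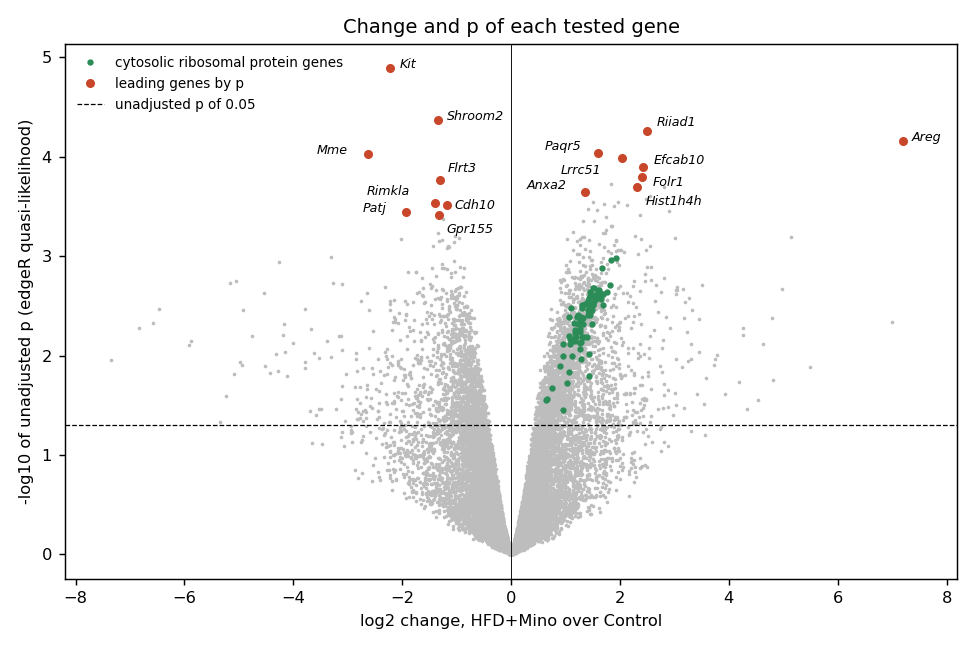
Each point is 1 of the tested genes, with its log2 change in HFD+Mino over Control on the horizontal axis and the negative log10 of its unadjusted p (edgeR quasi-likelihood) on the vertical axis; 3 genes beyond 8 log2 units are not drawn. All 78 cytosolic ribosomal protein genes lie on the higher side above the line of an unadjusted p of 0.05, and Kit has the smallest p of the labelled genes.

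Genes were named for the smallest p only among those whose HFD+Mino and Control samples did not overlap, so for them non-overlap is part of the choice. Those higher in HFD+Mino included Areg, Riiad1 and Paqr5. Areg (chr5:91139599-91148432 in GRCm38.p6), which encodes the epidermal growth factor receptor ligand amphiregulin, had 0, 4 and 4 counts in Control, 16, 4 and 6 in HFD and 407, 502 and 66 in HFD+Mino. These counts correspond to 0, 0.113 and 0.118 CPM in Control and 13.9, 18.6 and 1.8 CPM in HFD+Mino. All 3 HFD+Mino samples were above every other sample, replicate 3 the least so, and Areg was the 1 gene called when no filter on low counts was used. Riiad1 (chr3:94464984-94480326), a gene with a regulatory subunit domain of protein kinase A, stood at 3.5, 7.65 and 7.18 CPM in Control, 14.2, 13.8 and 8.93 in HFD and 37.3, 46.7 and 20.0 in HFD+Mino, a log2 change of 2.5 (SE 0.40, unadjusted p = 5.51e-05). Paqr5 (chr9:61953738-62026852), a membrane progestin receptor, stood at 9.21, 5.84 and 5.89 CPM in Control, 7.67, 8.5 and 6.74 in HFD and 21.8, 22.7 and 19.3 in HFD+Mino, a log2 change of 1.61 (SE 0.27, unadjusted p = 9.21e-05). It was higher in all 3 HFD+Mino samples by a similar amount, and the HFD samples overlapped Control. Anxa2, which encodes the membrane-binding protein annexin A2, stood at 23.3, 34.7 and 32 CPM in Control, 57.6, 44.6 and 35.1 in HFD and 78.6, 86.8 and 64.3 in HFD+Mino. Folr1, a folate receptor of epithelia such as the choroid plexus, stood at 1.49, 2.26 and 1.59 CPM in Control, 4.11, 2 and 1.67 in HFD and 9.51, 11.9 and 6.74 in HFD+Mino. The change was 1.35 for Anxa2 and 2.4 for Folr1 on the log2 scale. Efcab10, an EF-hand gene, stood at 12, 27.4 and 16.7 CPM in Control and 112, 143 and 47.1 in HFD+Mino. Lrrc51 stood at 10.0, 17.2 and 16.9 CPM in Control and 72.1, 75.6 and 33.6 in HFD+Mino, but 600 of its 1210 exon nt overlap Lamtor1 on the opposite strand, and whether reads were counted by strand is not given in the sources used here. Hist1h4h, a replication-type histone H4 gene, stood at 3.03, 2.34 and 2.27 CPM in Control and 14.2, 18 and 5.54 in HFD+Mino. Mia, an extracellular protein gene, and Aoc1, a diamine oxidase gene, had log2 changes of 3.05 and 3.46. Their level in Control replicate 1 was 0.695 and 0 CPM, and without that sample the log2 changes were 2.5 (unadjusted p = 9.46e-05) and 2.86 (unadjusted p = 0.00103).

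The genes named for the smallest p among those lower in HFD+Mino included Kit, Shroom2 and Mme. Kit (chr5:75574987-75656722), which encodes the receptor tyrosine kinase for stem cell factor, stood at 23.8, 17.2 and 29.2 CPM in Control, 24.4, 20.6 and 26.2 in HFD and 4.28, 3.97 and 6.77 in HFD+Mino. The log2 change was -2.22 (SE 0.30, unadjusted p = 1.29e-05), the smallest p of the named genes. HFD samples lay within the Control range, and all 3 HFD+Mino samples lay below both groups, replicate 3 included. Shroom2 (chrX:152609509-152770788), an actin-binding protein of epithelial and endothelial cells, stood at 99, 95.7 and 102 CPM in Control, 91.4, 89.6 and 115 in HFD and 31.5, 41.4 and 43.6 in HFD+Mino, a log2 change of -1.35 (SE 0.21, unadjusted p = 4.25e-05). Its HFD samples overlapped Control, and its HFD+Mino samples lay below both groups. Mme, the neprilysin gene, whose product degrades peptides at the cell surface, stood at 9.09, 6.72 and 6.53 CPM in Control, 2.76, 3.13 and 6.97 in HFD and 1.03, 0.965 and 1.58 in HFD+Mino. Of its HFD samples, replicates 1 and 2 were also below Control, and replicate 3 was within the Control range. Flrt3, a cell adhesion and axon guidance protein, stood at 58.7, 69.3 and 64.2 CPM in Control, 56.6, 49.8 and 62.1 in HFD and 18.6, 27.1 and 32 in HFD+Mino. Cdh10, a neuronal cadherin, stood at 43.5, 49.3 and 39.8 CPM in Control, 30.8, 36.1 and 44.6 in HFD and 16.8, 19.2 and 22.8 in HFD+Mino. The log2 change was -1.31 for Flrt3 and -1.17 for Cdh10. Rimkla, which encodes a synthase of N-acetylaspartylglutamate, was lower both with and without the drug, at 44, 28.8 and 26 CPM in Control, 13.2, 15 and 19.3 in HFD and 11.3, 12.7 and 13.5 in HFD+Mino. Patj, a tight junction polarity protein, was also lower in both, and stood at 97.3, 39.1 and 32 CPM in Control, 31, 23.3 and 30.4 in HFD and 15.6, 12.6 and 16.1 in HFD+Mino. Gpr155, a lysosomal cholesterol sensor, stood at 53.1, 40.4 and 38.7 CPM in Control, 35, 38.7 and 43.9 in HFD and 19.8, 11.9 and 21.3 in HFD+Mino. Scn4b, a sodium channel subunit gene, and Tmprss5, a membrane protease gene, had log2 changes of -4.54 and -4.18, which without Control replicate 1 were -2.25 (unadjusted p = 0.0179) and -2.32 (unadjusted p = 0.0711). The values followed a trend with exon length, described further on. With that trend removed, the log2 change was 1.28 (unadjusted p = 0.00759) for Riiad1, 1.07 (unadjusted p = 0.0088) for Efcab10 and 1.11 (unadjusted p = 0.0053) for Lrrc51. It was 0.75 (unadjusted p = 0.0266) for Hist1h4h and 1.89 (unadjusted p = 0.0318) for Mia. Paqr5 had 1.75 (unadjusted p = 5.33e-05), Anxa2 1.48 (unadjusted p = 0.000163), Folr1 2.13 (unadjusted p = 0.000384) and Areg 6.18 (unadjusted p = 0.000151). Of the lower genes, Kit had -2.01 (unadjusted p = 9.86e-06), Shroom2 -1.14 (unadjusted p = 4.26e-05) and Mme -2.5 (unadjusted p = 0.000146). Flrt3 had -1.1 (unadjusted p = 0.000217), Rimkla -1.24 (unadjusted p = 0.00059), Patj -1.85 (unadjusted p = 0.00126) and Gpr155 -1.11 (unadjusted p = 0.00128).

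**Figure D3:**
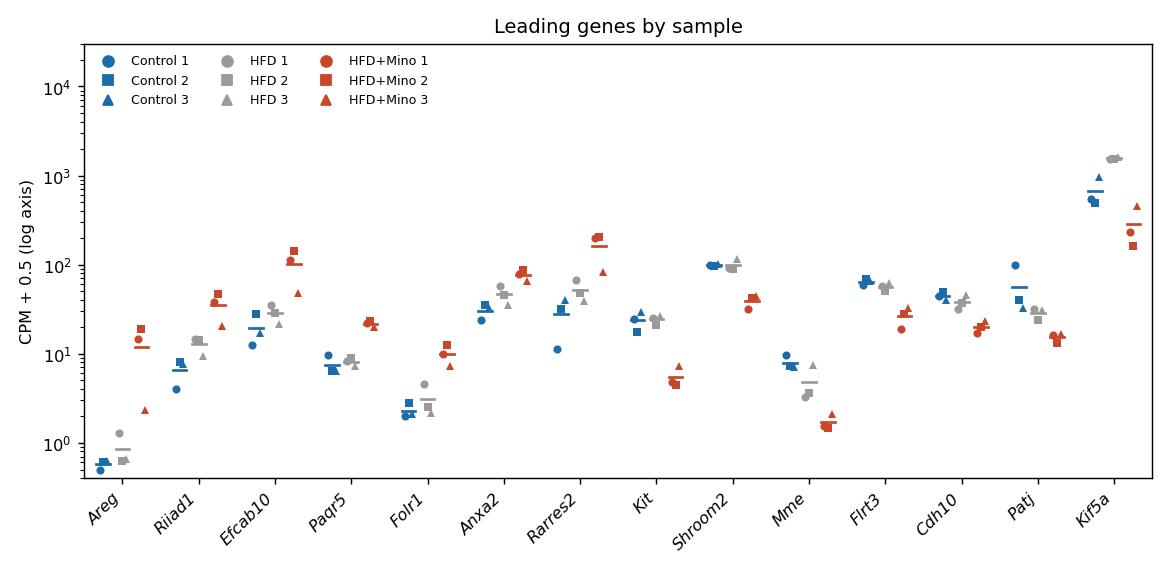
Levels of 14 genes in each of the 9 samples, as CPM plus 0.5 on a log axis; points are samples (marker shape gives the replicate number) and bars are group means. The HFD+Mino points lie above the Control points from Areg to Rarres2 and below them from Kit to Kif5a, and HFD+Mino replicate 3 is the nearest to Control in most of them. The genes from Areg to Anxa2 and from Kit to Patj were chosen among those without overlap.

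Some PVN peptide genes were higher in HFD+Mino, most of all in replicates 1 and 2. Of 18 tested genes on the list of PVN neuropeptides and transcription factors, 6 were higher and 0 lower at an unadjusted p under 0.05 (against 12.7% higher and 8.63% lower of all tested genes), and 7 did not overlap between the groups, all higher (8.94% of all tested genes). The list median was 1.33 on the log2 scale. The log2 change was 5.49 (SE 1.86, unadjusted p = 0.0129) for Avp and 3.55 (SE 1.44, unadjusted p = 0.0307) for Oxt, and without Control replicate 1 it was 4.9 (unadjusted p = 0.00212) and 2.96 (unadjusted p = 0.00141). In HFD+Mino replicate 3, Avp at 1217 CPM and Oxt at 1358 CPM were within 1.5-fold of Control replicate 3. Crh, the corticotropin-releasing hormone gene, stood at 20.6, 18 and 52.6 CPM in Control, 14.4, 49.8 and 49.8 in HFD and 126, 153 and 25.6 in HFD+Mino, so that replicate 3 lay within the Control range. Sst, the somatostatin gene, was highest in HFD+Mino replicate 3, with 102, 254 and 157 CPM in Control, 451, 225 and 137 in HFD and 331, 599.7 and 703 in HFD+Mino and a log2 change of 1.67 (SE 0.47, unadjusted p = 0.0042). Nnat, an imprinted proteolipid gene of hypothalamic neurons, stood at 609, 1281 and 1175 CPM in Control, 1691, 1593 and 1604 in HFD and 3370.3, 3328 and 1633 in HFD+Mino, a log2 change of 1.44 (SE 0.34, unadjusted p = 0.00126). Of the transcription factors, Sim1 stood at 0.77, 5.11 and 11.2 CPM in Control and 10.1, 35.7 and 2.51 in HFD+Mino, and Otp at 0, 0.875 and 2.77 CPM in Control and 0.616, 0.371 and 0.519 in HFD+Mino. For Sim1, HFD+Mino replicate 2 lay above the Control samples and replicates 1 and 3 within their range, with a log2 change of 1.5 (SE 0.91, unadjusted p = 0.126). The Otp levels of HFD+Mino lay within the Control range only through Control replicate 1, and below Control replicates 2 and 3. Sim1 in HFD+Mino replicate 3 likewise lay below Control replicates 2 and 3. Sim1 and Otp were named after their values were seen. Without Control replicate 1 the list had 6 higher and 1 lower (median 0.83). With the length trend removed it had 2 higher and 0 lower (median 0.77), and the log2 change was 3.32 (unadjusted p = 0.0782) for Avp, 1.51 (unadjusted p = 0.292) for Oxt, 0.75 (unadjusted p = 0.242) for Sst and 0.71 (unadjusted p = 0.287) for Crh.

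Peptide genes of neighbouring sites went both ways. Of 27 tested genes of neighbouring hypothalamic nuclei and thalamus, 6 were higher and 5 lower at an unadjusted p under 0.05 (against 12.7% higher and 8.63% lower of all tested genes), with a median log2 change of 0.18. Gal, the galanin gene, stood at 25.4, 66.3 and 28.4 CPM in Control, 155, 56.1 and 26.4 in HFD and 167, 203 and 292 in HFD+Mino, a log2 change of 2.46 (SE 0.59, unadjusted p = 0.0015). Pomc, whose product gives rise to melanocortins in arcuate neurons, stood at 4.97, 3.81 and 4.06 CPM in Control, 3.91, 5.1 and 3.38 in HFD and 20.7, 12.3 and 6.34 in HFD+Mino, and Npy, the orexigenic neuropeptide Y gene, at 9.53, 18.1 and 5.47 CPM in Control, 12.5, 8.67 and 8.74 in HFD and 28.9, 85 and 24.4 in HFD+Mino. Both Pomc and Npy were above every Control and HFD sample in all 3 HFD+Mino samples, with log2 changes of 1.61 and 2.06. With the length trend removed these were 0.77 (unadjusted p = 0.0279) and 0.77 (unadjusted p = 0.0988), Gal had 1.64 (unadjusted p = 0.0352), and the list had 4 higher and 6 lower (median -0.28). Prok2, a peptide of the suprachiasmatic nucleus, stood at 0.0993, 0 and 0.147 CPM in Control and 1.61, 2.04 and 5.46 in HFD+Mino, with 4.21, 1.42 and 0.373 in HFD. Lhx1, a transcription factor of the suprachiasmatic nucleus and other sites, was lower, at 5.88, 6.07 and 4.56 CPM in Control and 1.51, 1.63 and 2.16 in HFD+Mino. Hcrt, the orexin gene, stood at 73.4, 812 and 1.59 CPM in Control, 0.501, 0.174 and 0.498 in HFD and 3.01, 7.02 and 0.164 in HFD+Mino, a fitted log2 change of -6.46 that Control replicates 1 and 2 carry. For Pmch the fitted log2 change was -5.1 (SE 1.79, unadjusted p = 0.0154), and Parpbp, which shares 435 exon nt with Pmch on the opposite strand, had one of -5.16 (SE 1.28, unadjusted p = 0.00187).

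Cytosolic ribosomal protein genes were the list in which every tested member was higher at an unadjusted p under 0.05. Promoters are shown for 3 of them, which lead the list in the blocked fit among those with a promoter sequence at hand. Cytosolic ribosomal proteins build the ribosome that translates nuclear-encoded messages, and their promoters are known for binding sites of ETS-family factors, whose core is spelled here as CTTCCG. The sequences below run 5′ to 3′ from 250 bases before to 50 bases after the RefSeq start (GRCm38.p6), and capitals mark CTTCCG or its reverse complement CGGAAG. Rpl38 lies at chr11:114668330-114668629 on the + strand, Rpl41 at chr10:128549119-128549418 on the - strand and Rps27 at chr3:90213599-90213898 on the - strand.
Rpl38: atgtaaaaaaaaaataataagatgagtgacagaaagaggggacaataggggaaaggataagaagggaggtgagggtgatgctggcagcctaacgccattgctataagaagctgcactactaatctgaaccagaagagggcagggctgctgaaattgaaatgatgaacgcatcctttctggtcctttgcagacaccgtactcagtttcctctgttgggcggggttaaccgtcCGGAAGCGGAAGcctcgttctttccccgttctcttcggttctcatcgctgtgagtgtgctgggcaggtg
Rpl41: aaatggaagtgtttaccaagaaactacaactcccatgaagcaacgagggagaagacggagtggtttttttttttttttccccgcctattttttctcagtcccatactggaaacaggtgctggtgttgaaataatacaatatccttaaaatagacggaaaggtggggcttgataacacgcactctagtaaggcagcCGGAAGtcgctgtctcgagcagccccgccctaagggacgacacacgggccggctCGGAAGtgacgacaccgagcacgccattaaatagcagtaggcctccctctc
Rps27: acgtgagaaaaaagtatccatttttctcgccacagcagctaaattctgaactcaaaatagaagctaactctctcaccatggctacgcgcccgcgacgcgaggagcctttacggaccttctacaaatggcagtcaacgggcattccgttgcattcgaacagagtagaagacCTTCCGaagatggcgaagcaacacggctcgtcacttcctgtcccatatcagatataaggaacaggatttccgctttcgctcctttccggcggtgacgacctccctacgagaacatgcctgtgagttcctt
Searched on both strands, these 6 letters were in the promoters of 40 of 58 cytosolic ribosomal protein genes with a sequence (69.0%), 39 of 69 mitochondrial ribosomal protein genes (56.5%) and 25 of 61 nuclear genes of the respiratory chain (41.0%). Over all 13063 tested genes with a promoter of this length the share was 30.1%. A match describes the letters and is neither a site in use nor a cause.

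All 78 tested genes of cytosolic ribosomal proteins were higher in HFD+Mino at an unadjusted p under 0.05, against 12.7% of all tested genes, with a median log2 change of 1.35 and a range from 0.64 to 1.93. The medians of the individual samples, taken as log2 differences from the Control mean, were 0.39, 0.15 and -0.52 in Control, 0.56, 0.63 and 0.48 in HFD and 1.78, 1.65 and 0.28 in HFD+Mino. HFD+Mino replicates 1 and 2 were above every Control sample in 78 of 78 genes and replicate 3 in 15, so 15 genes did not overlap between the groups (8.94% of all genes were higher without overlap). Over all 17344 tested genes, replicates 1, 2 and 3 were above every Control sample in 6217, 6413 and 3675. Rpl38 stood at 79.8, 63.7 and 31.5 CPM in Control, 63, 80.1 and 64.5 in HFD and 286, 252 and 78.8 in HFD+Mino, a log2 change of 1.82 (SE 0.45, unadjusted p = 0.00196). Rps27 stood at 49.7, 43 and 24.8 CPM in Control, 86.6, 102 and 78.5 in HFD and 204, 189 and 53.8 in HFD+Mino, a log2 change of 1.93 (SE 0.44, unadjusted p = 0.00104). Rps28 stood at 35.5, 30.5 and 18.8 CPM in Control and 136, 129 and 37.4 in HFD+Mino. Rpl41 stood at 113, 96.5 and 56.6 CPM in Control and 405, 319 and 127 in HFD+Mino. With the length trend removed, Rpl38 had a log2 change of 0.41 (unadjusted p = 0.0449), Rps27 of 0.92 (unadjusted p = 0.00257) and Rpl41 of 0.79 (unadjusted p = 0.00303). In HFD, Rpl38 overlapped Control, and Rps27 lay above it in all 3 samples. With the block inside the fit of all 9 samples, 59 of the 78 genes were called at FDR under 0.01 (2.68% of all genes were called higher), and without HFD+Mino replicate 3, 72 were (4.03%). Many ribosomal protein genes have processed pseudogenes elsewhere in the genome, and how reads with several positions were counted is not given in the sources used here.

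Mitochondrial ribosomal protein genes are the nuclear genes for the ribosome inside mitochondria. Of 78 tested, 48 were higher and 0 lower (against 12.7% higher and 8.63% lower of all genes). Their median log2 change was 0.77. HFD+Mino replicates 1, 2 and 3 were above every Control sample in 73, 71 and 9 of them. The same counts over all 17344 tested genes were 6217, 6413 and 3675. Mrpl33 stood at 74.6, 71.7 and 35.2 CPM in Control, 52.5, 56.3 and 49.3 in HFD and 236, 239 and 84 in HFD+Mino, a log2 change of 1.62 (SE 0.39, unadjusted p = 0.00164). Mrpl52 stood at 32.4, 34 and 20.0 CPM in Control, 31.3, 41.5 and 29 in HFD and 145, 105 and 38.3 in HFD+Mino, and Mrpl41 at 136, 128 and 83.4 CPM in Control, 79.8, 96.3 and 80.1 in HFD and 370.0, 322 and 153 in HFD+Mino. These 3 genes were above every Control sample in each HFD+Mino sample, by little in replicate 3, and Mrpl17 had a log2 change of 1.15. After removal of the length trend, Mrpl52 had 0.77 (unadjusted p = 0.00784) and Mrpl41 0.22 (unadjusted p = 0.172). The factors that work with this ribosome did not share the pattern. Of 27 tested translation factors and tRNA synthetases of mitochondria, 3 were higher and 2 lower, with a median of -0.13. The 2 lists differed in length, with a median exon length of 4971 nt for the factors and 2394 nt for the ribosomal proteins. With the length trend removed, 3 factor genes were higher and 2 lower (median -0.08), against 30 higher and 1 lower (median 0.44) of the ribosomal protein genes. Gfm1, an elongation factor gene, was lower, at 53.1, 45.2 and 41.5 CPM in Control and 17, 24.5 and 33 in HFD+Mino, and Fars2, Rars2 and Mrrf had log2 changes of 0.66, 0.52 and 0.67.

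Genes of the respiratory chain followed the ribosomal genes in replicates 1 and 2. Of 73 tested nuclear subunit genes, 46 were higher and 2 lower (against 12.7% higher and 8.63% lower of all genes). Their median log2 change was 0.97. HFD+Mino replicates 1 and 2 were above every Control sample in 65 and 63 of them and replicate 3 in 0, so no gene was higher without overlap. Over all 17344 tested genes the counts for replicates 1, 2 and 3 were 6217, 6413 and 3675. Ndufa2, a complex I subunit, stood at 348, 286 and 167 CPM in Control, 157, 193 and 161 in HFD and 999.7, 858 and 305 in HFD+Mino. Atp5g2, a subunit of the ATP synthase ring, stood at 33.7, 28.5 and 22.5 CPM in Control, 42.5, 41.9 and 36.7 in HFD and 107, 83.4 and 33.5 in HFD+Mino, with HFD+Mino replicate 3 just under the highest Control sample. Ndufa7 and Ndufv3 had log2 changes of 1.39 and 1.25. Ndufa2 had 0.053 (unadjusted p = 0.743) and Atp5g2 0.79 (unadjusted p = 0.0075) once the length trend was removed. Without Control replicate 1 the list had 59 higher and 0 lower (median 1.35). All 13 protein-coding genes of the mitochondrial genome had a change above 0, 7 of them at an unadjusted p under 0.05, with a median of 1.07 and none without overlap. Their summed level was 28076, 19329 and 8638 CPM in Control and 36472, 49053 and 22193 CPM in HFD+Mino. CYTB, the cytochrome b gene, stood at 7466, 5346 and 2448 CPM in Control, 5430.3, 4671 and 4883 in HFD and 11693, 15826 and 7300.3 in HFD+Mino. COX3 and ND4 had log2 changes of 1.37 and 1.33, and ATP6 had 1.07, which became -0.056 (unadjusted p = 0.813) once the length trend was removed, as CYTB became 0.41 (unadjusted p = 0.138) and COX3 0.27 (unadjusted p = 0.221). Proteasome genes were higher in 16 of 32 and lower in 0, with a median of 0.55. Psmb2, a core subunit, stood at 323, 289 and 173 CPM in Control and 758, 806 and 319.7 in HFD+Mino, and Psmb3, Psmb6 and Psmb1 had log2 changes of 1.22, 1.08 and 1.09.

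A trend with the length of the gene moved with these groups. In the shortest eighth of the genes (exons of at most 1891 nt), 865 of 1955 were higher and 22 lower at an unadjusted p under 0.05, with a median log2 change of 0.77. The medians of these genes, as log2 differences from the Control mean, were 0.22, 0.091 and -0.27 in Control, -0.21, -0.13 and -0.23 in HFD and 0.97, 0.80 and 0.17 in HFD+Mino. In the eighth with exons from 4335 to 5361 nt, 119 of 1952 genes were higher and 261 lower, with a median of -0.26. HFD+Mino replicate 2 also departed with GC content, with a median of -0.61 in the most GC-rich eighth, where replicates 1 and 3 stood at -0.036 and 0.17. Exon length here was the union of all annotated exons of a gene, not the length of the transcripts present. By this measure the cytosolic ribosomal protein genes had a median of 1775.5 nt. Whether removing this trend takes out all of an effect of transcript length was not tested. When the length trend of each sample was taken out, 1870 of all 17344 tested genes were higher and 1261 lower. Of the 78 cytosolic ribosomal protein genes, 63 were then higher and 0 lower, with a median of 0.86. Of the mitochondrial ribosomal protein genes 30 were higher and 1 lower, with a median of 0.44. For nuclear respiratory chain genes these values were 19, 0 and 0.22, for mitochondrial genome genes 1, 1 and -0.056, and for proteasome genes 16, 1 and 0.44. With the length trend removed, the block inside the fit of all 9 samples called 0 genes, against 551 with it (smallest FDR 0.0109). What gave rise to the trend was not tested.

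**Figure D4:**
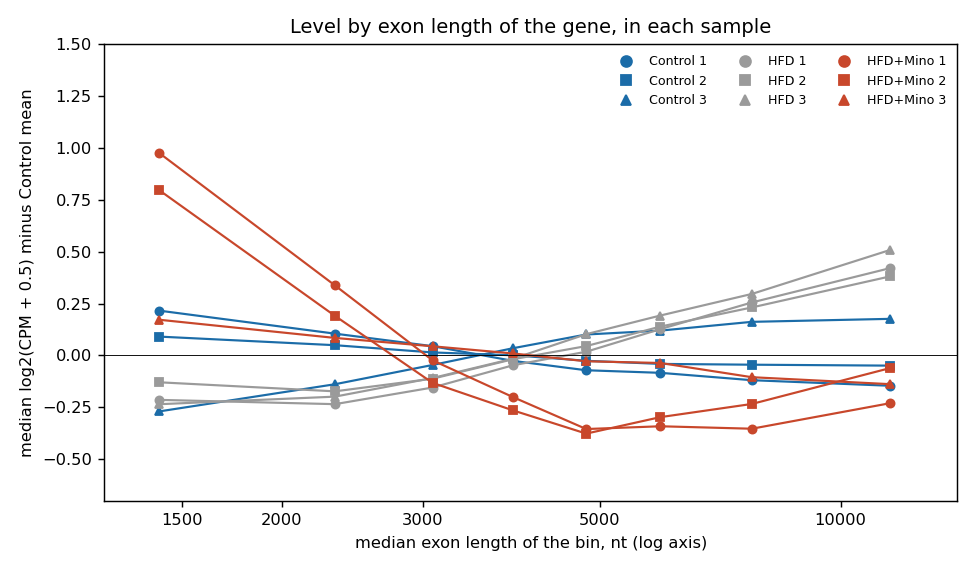
Median log2(CPM + 0.5) relative to the Control mean in 8 bins of genes ordered by exon length, plotted at the median length of each bin on a log axis; each line is 1 of the 9 samples. HFD+Mino replicates 1 and 2 stand at 0.97 and 0.80 in the shortest bin and replicate 3 at 0.17, within the Control samples, while the HFD lines slope the other way.

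Ependymal and cilium genes leaned higher than Control in both HFD+Mino and HFD. By list median, HFD+Mino replicate 3 stood beside the other HFD+Mino samples. Ependymal cells line the third ventricle beside the PVN and carry motile cilia. Of 18 tested genes of ependymal cells, tanycytes and motile cilia, 7 were higher and 0 lower (against 12.7% higher and 8.63% lower of all tested genes). Of the 18, 9 did not overlap, all higher (8.94% of all genes were higher without overlap), and the median log2 change was 0.98. Rarres2, the chemerin gene, stood at 10.8, 31.3 and 39.8 CPM in Control, 67.1, 47.8 and 38.6 in HFD and 198, 201 and 81.7 in HFD+Mino, a log2 change of 2.56 (SE 0.48, unadjusted p = 0.000247). Cfap126, a gene of cilia and basal bodies, stood at 1.32, 6.91 and 6.21 CPM in Control, 22.4, 19.1 and 12.4 in HFD and 26.9, 29.5 and 16.1 in HFD+Mino, and Rsph1, a radial spoke protein, at 4.27, 29.6 and 30.5 CPM in Control, 59.1, 50.8 and 36.4 in HFD and 63.5, 76.9 and 49 in HFD+Mino. Vim, the intermediate filament vimentin, stood at 18.2, 17.7 and 14 CPM in Control, 25.1, 26.7 and 24.6 in HFD and 37.2, 40.3 and 20.2 in HFD+Mino. In HFD, Cfap126, Rsph1 and Vim were likewise above every Control sample, whereas in Rarres2 the HFD and Control samples overlapped. The summed level of the list was 71.2, 222 and 248 CPM in Control, 501, 365 and 303 in HFD and 732, 862 and 455 in HFD+Mino, and the lowest value was that of Control replicate 1. Without that sample the list had 8 higher and 0 lower (median 0.76), and with the length trend removed 6 higher and 0 lower (median 1.14), where Rsph1 had a log2 change of 0.74 (unadjusted p = 0.238). Choroid plexus genes were at low levels. Of 11 tested, 3 were higher and 1 lower with a median of 0.39, and Ttr, the transthyretin gene that defines this epithelium and was named after its values were seen, stood at 1.84, 0.395 and 0.353 CPM in Control and 0.548, 0.743 and 2.1 in HFD+Mino. Calml4 and Sostdc1 had log2 changes of 2.43 and 1.00, and Enpp2, which oligodendrocytes also make, had a log2 change of -1.8 with all samples and -0.91 (unadjusted p = 0.0376) without Control replicate 1. Fxyd2, which encodes a regulatory subunit of the sodium pump in epithelia, was among the smallest FDR of the blocked 6-sample fit, at 3.87, 5.47 and 2.21 CPM in Control, 7.22, 5.07 and 5.45 in HFD and 20.6, 31 and 8.55 in HFD+Mino.

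Some genes of inhibitory transmission and of synaptic release were lower. Gad1, the gene for an enzyme that makes GABA, stood at 611, 745 and 646 CPM in Control, 528, 293 and 485 in HFD and 74.6, 202 and 331 in HFD+Mino, a log2 change of -1.72 (SE 0.44, unadjusted p = 0.00233). Slc32a1, the vesicular GABA transporter gene, stood at 24.6, 28.6 and 29.8 CPM in Control, 18.2, 12.4 and 14.2 in HFD and 9.38, 8.73 and 18.9 in HFD+Mino. In both genes every HFD+Mino sample was below every Control sample, and every HFD sample was too. Gad2, the gene for the other GABA-making enzyme, had a log2 change of -0.86, which was -0.61 (unadjusted p = 0.0934) with the length trend removed. Of the 8 tested genes of GABA and glutamate neurons, 0 were higher and 4 lower, against 8.63% of all genes, and the list median was -0.99. The main vesicular glutamate transporter gene of the hypothalamus, Slc17a6, named after its values were seen, had a log2 change of -0.075 (SE 0.33, unadjusted p = 0.826). Of 30 tested genes of synaptic vesicle release, 1 was higher and 11 lower, 10 were lower without overlap (10.1% of all genes), and the median was -0.53, with 8 of 30 changes above 0. Cplx1, a complexin that clamps and promotes fusion, stood at 1037, 367 and 316 CPM in Control, 225, 230.0 and 351 in HFD and 119, 114 and 188 in HFD+Mino, and Vamp1, a vesicle SNARE, at 598, 230.1 and 164 CPM in Control, 90.1, 127 and 202 in HFD and 98.3, 81.3 and 88 in HFD+Mino. Control replicate 1 was the highest for both, and without it the log2 changes were -1.29 (unadjusted p = 0.00123) and -1.15 (unadjusted p = 0.00472). Napb, a cofactor of SNARE disassembly, stood at 519, 515 and 581 CPM in Control, 478, 632 and 739.5 in HFD and 217, 263 and 354 in HFD+Mino. Kif5a, a kinesin motor of axons, stood at 542, 487 and 958 CPM in Control, 1548, 1546 and 1602 in HFD and 232, 159 and 457 in HFD+Mino, so that for Kif5a the HFD samples lay above Control and the HFD+Mino samples below. Tppp, a tubulin-binding protein, stood at 352, 312 and 451 CPM in Control, 432, 506 and 578 in HFD and 112, 144 and 199 in HFD+Mino.

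Receptor, channel and activity-dependent genes were counted in the same way. Of 29 tested GABA-A and ionotropic glutamate receptor genes, 1 was higher and 4 lower (against 12.7% higher and 8.63% lower of all tested genes), with a median of -0.36. Without Control replicate 1 there were 0 higher and 7 lower (median -0.48), and with the length trend removed 1 higher and 2 lower (median -0.25). Grin3a, Grik2 and Gria4 had log2 changes of -1.32, -0.76 and -0.50, and with the length trend removed the last 2 were -0.62 (unadjusted p = 0.0646) and -0.27 (unadjusted p = 0.21). Of 35 tested potassium channel genes, 1 was higher and 8 lower, with a median of -0.32, and with the length trend removed 2 higher and 8 lower (median -0.18). Kcnb2, Kcnc1 and Kcnj3 had log2 changes of -1.06, -1.01 and -0.92. Immediate early genes, which neurons switch on with firing, were higher in 0 and lower in 9 of 23 tested, with a median of -0.78, and with the length trend removed 1 higher and 10 lower (median -0.65). Fos stood at 32.5, 111 and 168 CPM in Control, 26.1, 42.7 and 55 in HFD and 26.8, 12.5 and 43.4 in HFD+Mino, and its HFD and HFD+Mino samples overlapped. Egr1 stood at 31.8, 86.3 and 155 CPM in Control, 54.5, 66.5 and 135 in HFD and 9.65, 10.2 and 46.6 in HFD+Mino. Arc, which regulates glutamate receptor endocytosis, stood at 34.3, 21.7 and 27.3 CPM in Control, 16.7, 24.6 and 28.6 in HFD and 10.6, 1.6 and 10.4 in HFD+Mino, and Npas4 and Btg2 had log2 changes of -2.16 and -1.25. Control replicates differed up to several-fold from each other in Fos and Egr1, with replicate 1 the lowest. General neuronal genes were higher in 2 and lower in 4 of 19, with a median of -0.37: Uchl1 and Gap43 had log2 changes of 0.97 and 0.67, and Nefl and Nefh, neurofilament genes, of -1.07 and -1.47. Removal of the length trend left 1 higher and 4 lower (median -0.17), with Uchl1 at 0.34 (unadjusted p = 0.164) and Gap43 at 0.016 (unadjusted p = 0.947).

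Microglial genes did not all go the same way. Aif1, which encodes Iba-1, stood at 14.9, 8.83 and 4.62 CPM in Control, 7.07, 7.19 and 5.97 in HFD and 23.7, 19.6 and 8.77 in HFD+Mino, a log2 change of 0.88 (SE 0.44, unadjusted p = 0.0733); without Control replicate 1 it was 1.36 (unadjusted p = 0.0104). Of 20 tested microglial genes, 6 were higher and 1 lower (against 12.7% higher and 8.63% lower of all tested genes), with a median of 0.29. Without Control replicate 1 there were 8 higher and 0 lower (median 0.44), and with the length trend removed 4 higher and 0 lower (median 0.051). Tyrobp, a signaling adaptor, stood at 46, 30.0 and 18.7 CPM in Control, 29.4, 28.1 and 28.6 in HFD and 109, 82 and 38.3 in HFD+Mino, and Siglech at 23, 18.9 and 14.5 CPM in Control, 18, 17.8 and 20.2 in HFD and 44.2, 41.2 and 24.2 in HFD+Mino. The complement genes C1qb and C1qc had log2 changes of 0.88 (SE 0.34, unadjusted p = 0.0266) and 0.83 (SE 0.28, unadjusted p = 0.0118). After removal of the length trend, Tyrobp had 0.057 (unadjusted p = 0.769), C1qb 0.045 (unadjusted p = 0.86), C1qc 0.44 (unadjusted p = 0.0455) and Siglech 1.03 (unadjusted p = 0.00341). Genes that define homeostatic microglia, named after their values were seen, gave log2 changes of 0.17 (SE 0.22, unadjusted p = 0.448) for Cx3cr1, -0.028 (SE 0.30, unadjusted p = 0.927) for P2ry12 and 0.05 (SE 0.29, unadjusted p = 0.865) for Tmem119. The summed level of the list was 773, 617 and 477 CPM in Control and 952, 791 and 739 CPM in HFD+Mino (exact permutation test, two-sided, p = 0.2). Among 23 tested genes of microglial activation and cytokines, 2 were higher and 1 lower, with a median of 0.26. Without Control replicate 1 there were 4 higher and 0 lower (median 0.32), and with the length trend removed 0 higher and 1 lower (median -0.031). Nfkbia, the inhibitor that NF-kB itself induces, stood at 46.6, 42.4 and 45.8 CPM in Control, 31.3, 45.9 and 45.7 in HFD and 123, 68.1 and 84.9 in HFD+Mino. Casp1 and Ptgs2 had log2 changes of 1.47 and -2.75, and Axl of -0.60. After removal of the length trend, Nfkbia had 0.46 (unadjusted p = 0.103), Casp1 0.75 (unadjusted p = 0.13) and Ptgs2 -2.54 (unadjusted p = 0.0594). The cytokines themselves were at the limit of detection: Il6 had 6, 16 and 0 counts in Control and 0, 28 and 0 in HFD+Mino, and Tnf, Il1b and Il10 had at most 7 counts in any sample and were not tested. A difference in these cytokines was not detectable at this depth.

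Counts of other immune genes were larger without Control replicate 1. With all samples, 12.7% of all tested genes were higher and 8.63% lower. Without that sample 2174 of these 17344 genes were higher and 1367 lower, and with the length trend removed 1870 and 1261. Of 24 complement and MHC genes, 5 were higher and 0 lower (median 0.48), against 13 higher and 0 lower (median 0.88) without that sample and 2 higher and 0 lower (median 0.19) with the length trend removed. Of 25 interferon response genes, 6 were higher and 1 lower (median 0.36), against 12 higher and 1 lower (median 1.29) without that sample and 3 higher and 1 lower (median 0.21) with the length trend removed. Ifitm3, an antiviral membrane protein also made by endothelium, stood at 57.9, 25.3 and 15 CPM in Control, 23.8, 20.3 and 17.5 in HFD and 149, 164 and 40.7 in HFD+Mino. Ifi35 stood at 9.83, 6.66 and 6.41 CPM in Control, 3.71, 4.61 and 4.73 in HFD and 21.4, 23 and 10.1 in HFD+Mino. Irf7 and Oasl2 had log2 changes of 1.24 and 0.91. The complement genes C1qa and C5ar1 had log2 changes of 0.71 and 1.38; after removal of the length trend C1qa stood at -0.15 (unadjusted p = 0.508) and Ifitm3 at 0.61 (unadjusted p = 0.0648).

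Astrocyte genes were higher in 0 and lower in 5 of 18 (against 12.7% higher and 8.63% lower of all tested genes), with a median of -0.23. Without Control replicate 1 there were 2 higher and 2 lower (median -0.19), and with the length trend removed 0 higher and 3 lower (median -0.24). Aldh1l1 stood at 80.4, 66.8 and 72.1 CPM in Control, 77.9, 92.5 and 88.7 in HFD and 27.9, 26.7 and 59 in HFD+Mino. Gja1, the gap junction protein connexin 43, stood at 316, 392 and 335 CPM in Control, 326, 381 and 410.2 in HFD and 156, 142 and 282 in HFD+Mino. Aqp4, a water channel, and Atp1b2 had log2 changes of -0.84 and -0.77. Myelin genes show how far 1 library can carry a list. Of 18 tested, 13 were lower, with a median of -1.71, but without Control replicate 1 only 1 was, Ugt8a, with a list median of -0.38. Ermn and Trf had log2 changes of -0.81 (unadjusted p = 0.107) and -0.43 (unadjusted p = 0.351) without that sample. Oligodendrocyte precursor genes were lower in 3 and higher in 0 of 12 (median -0.37). Among them were Sox10, Olig1 and Gpr17, with log2 changes of -1.36, -0.95 and -0.61. Without Control replicate 1 only 1 was lower, while the list median was -0.46. Endothelial and mural genes were split, with 3 higher and 2 lower of 21 (median -0.0048). Ly6c1, an endothelial surface protein gene, stood at 118, 56.8 and 35.3 CPM in Control, 32.8, 41.2 and 46.6 in HFD and 297, 247 and 74.4 in HFD+Mino. Kdr, a vascular endothelial growth factor receptor gene, went the other way, at 6.9, 6.35 and 10.8 CPM in Control, 13.1, 10.1 and 16.1 in HFD and 2.36, 2.19 and 4.21 in HFD+Mino, and Pdgfrb, a pericyte receptor gene, had a log2 change of -1.08, while Egfl7, an endothelial secreted factor, had one of 0.84. Blood genes were higher in 1 of 5 tested. That gene was S100a9, a neutrophil gene with 0, 0 and 0 counts in Control and 104, 19 and 0 in HFD+Mino. The hemoglobin genes Hba-a1 and Hba-a2 had log2 changes of 1.08 and 0.99.

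Insulin and autophagy genes past an unadjusted p of 0.05 went both ways, against a background of 12.7% higher and 8.63% lower over all tested genes. Of 36 tested insulin signaling genes, 3 were higher and 4 lower, with a median of -0.15. Insr, the insulin receptor gene, was named after its values were seen and had a log2 change of 0.41 (SE 0.27, unadjusted p = 0.161). Eif4ebp1, a translation repressor downstream of mTOR, stood at 5.41, 5.14 and 4.12 CPM in Control, 4.01, 2.78 and 4.08 in HFD and 23.1, 15.2 and 7.62 in HFD+Mino. Pik3r3, a regulatory subunit of phosphoinositide 3-kinase, stood at 27.3, 30.9 and 30.3 CPM in Control, 44.8, 40.5 and 52.2 in HFD and 13.8, 21 and 13.9 in HFD+Mino, above Control in HFD and below it in HFD+Mino. Igf1r and Pik3r4 had log2 changes of 0.72 and -0.98. Of 41 core autophagy genes, 5 were higher and 7 lower, with a median of -0.16, and with the length trend removed 2 higher and 6 lower (median -0.01). Atg16l1, a scaffold of LC3 lipidation, stood at 65, 69.4 and 84.2 CPM in Control, 64.4, 64.3 and 62 in HFD and 51.2, 43.1 and 35.5 in HFD+Mino, and Nbr1, a cargo receptor, at 107, 98.5 and 147 CPM in Control, 133, 150.0 and 145 in HFD and 51.2, 49.4 and 87.1 in HFD+Mino. Atg4c and Gabarap had log2 changes of -0.86 and 1.01. Of 37 lysosomal genes, 4 were higher and 1 lower, with a median of -0.035. Ctsl, a cathepsin gene, stood at 257, 251 and 205 CPM in Control and 489, 656 and 267 in HFD+Mino, and Cd63, Ctsz and Npc2 had log2 changes of 1.17, 0.87 and 0.61, where Ctsz had 0.15 (unadjusted p = 0.467) with the length trend removed.

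Lipid genes past an unadjusted p of 0.05 went both ways, against a background of 12.7% higher and 8.63% lower over all tested genes. Of 34 tested cholesterol and fatty acid synthesis genes, 4 were higher and 8 lower, with a median of -0.37; after removal of the length trend 6 were higher and 4 lower. Scd2, a fatty acid desaturase of the brain, stood at 746, 636 and 916 CPM in Control, 1442, 1528 and 1534 in HFD and 222, 251 and 483 in HFD+Mino, a log2 change of -1.27 (SE 0.30, unadjusted p = 0.00131). HFD samples of Scd2 were all above Control and HFD+Mino samples all below. Elovl6, a fatty acid elongase, was below Control both in HFD and in HFD+Mino, at 79.1, 73.6 and 67.2 CPM in Control, 38.2, 52.7 and 54.9 in HFD and 48.1, 49.98 and 45.5 in HFD+Mino, and its log2 change with the length trend removed was -0.39 (unadjusted p = 0.088). Acly and Fdps had log2 changes of -0.79 and 0.77. Of 34 genes of fatty acid uptake, oxidation and ketone use, 3 were higher and 5 lower (median -0.046). Cpt1a, which brings fatty acids into mitochondria, stood at 28.4, 24.4 and 34.5 CPM in Control, 32, 33.4 and 37 in HFD and 9.99, 12.2 and 19.8 in HFD+Mino, and Fabp3, Acsl6 and Acsl3 had log2 changes of 1.22, -0.87 and -0.84, and with the length trend removed Fabp3 had 0.083 (unadjusted p = 0.659).

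Stress, hormone and clock genes gave scattered differences. In the planned test, 12.7% of all tested genes were higher and 8.63% lower, and several of these lists stayed near those shares. Of 18 glucocorticoid receptor and target genes, 5 were higher and 2 lower (median 0.16), and with the length trend removed 2 higher and 2 lower (median 0.34). Mt2, a metallothionein, stood at 102, 72.2 and 37.9 CPM in Control, 48.6, 61.5 and 58.6 in HFD and 322, 181 and 126 in HFD+Mino, and Mt1 at 660.4, 468 and 234 CPM in Control, 375, 417 and 392 in HFD and 1815, 1268 and 633 in HFD+Mino. Both have short transcripts, 432 of the 588 exon nt of Mt2 overlap a gene on the opposite strand, Gm45774, and with the length trend removed their log2 changes were 0.35 (unadjusted p = 0.178) and 0.66 (unadjusted p = 0.0178). Dusp1, a phosphatase of MAP kinases, had a log2 change of -0.78. Feeding and satiety receptor genes were higher in 3 and lower in 3 of 27 (median 0.38): Ramp2 and Ramp1, partners of calcitonin-family receptors, had log2 changes of 1.47 and 0.84, Crhr1 of -1.51 and Gipr of -2.66. Of 19 clock genes 2 were higher and 1 lower (median -0.23). Dbp, an output gene of the clock, stood at 26.6, 27.1 and 28.5 CPM in Control, 20.5, 25.8 and 23.1 in HFD and 69.1, 31.5 and 57.1 in HFD+Mino, and Ciart, a clock repressor, at 31.4, 31 and 26.4 CPM in Control, 14.6, 17.7 and 15.7 in HFD and 82.3, 35.4 and 54.6 in HFD+Mino, while Rora and Arntl had log2 changes of -0.83 and -0.91. Heat shock chaperone genes were higher in 1 and lower in 2 of 22 (median -0.17), with Hsph1, Stip1 and Dnajb2 at log2 changes of -0.50, -0.40 and -0.43, and Hsph1 at -0.27 (unadjusted p = 0.126) with the length trend removed. Mitochondrial and integrated stress response genes were higher in 5 and lower in 1 of 25 (median -0.027), with Clpp, Hspe1, Atf5 and Pycr1 at log2 changes of 0.86, 1.2, 1.68 and 0.90, and with the length trend removed 3 higher and 1 lower (median 0.0071), with Clpp at 0.0071 (unadjusted p = 0.969) and Hspe1 at 0.54 (unadjusted p = 0.0797). Caspase and BCL2 family genes were higher in 3 and lower in 1 of 25 (median 0.058), with Casp6, Bad and Bcl2l11 at log2 changes of 1.01, 0.87 and -1.11 and the apoptosis effector Bax at 63.8, 52 and 37.4 CPM in Control, 34.3, 34.7 and 29.7 in HFD and 145, 97.6 and 65.7 in HFD+Mino. Matrix metalloproteinase genes were higher in 0 and lower in 1 of 15 (median -0.40), with Mmp24, Mmp28 and Mmp16 at log2 changes of -1.18, -1.78 and -0.54 and the membrane protease Mmp14 at 15.9, 21.7 and 29.3 CPM in Control, 21.7, 21.8 and 21.3 in HFD and 8.45, 3.16 and 13.5 in HFD+Mino. Ribosomal precursor and nuclear noncoding RNAs were higher in 3 and lower in 1 of 12 (median 0.60). The ribosomal precursor Rn45s stood at 461, 356 and 239 CPM in Control, 3823, 3566 and 3476 in HFD and 1346, 754 and 426 in HFD+Mino, and the nuclear RNA Neat1 at 82.5, 26.3 and 20.9 CPM in Control, 9.42, 19.7 and 15.3 in HFD and 5.99, 6.65 and 16.4 in HFD+Mino. Rn18s and Rpph1 had log2 changes of 1.53 and 2.15. Sex genes served as a label check, and Ddx3y on the Y chromosome stood at 76.1, 78.6 and 85.5 CPM in Control and 39.9, 86.2 and 62.5 in HFD+Mino, with at most 14 counts of Xist in any sample; of the 4 tested, 0 were higher and 0 lower.

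Leaving out Control replicate 1 moved further counts. Of the 17344 genes of the planned test, 2174 were higher and 1367 lower at an unadjusted p under 0.05 without that sample. Without it there were 12 higher and 0 lower (median 1.44) of 13 mitochondrial genome genes, 3 higher and 0 lower (median 1.74) of 5 blood genes and 1 higher and 2 lower (median -0.26) of 19 general neuronal genes. There were 2 higher and 1 lower (median -0.13) of 27 mitochondrial translation factor genes, 0 higher and 2 lower (median -0.60) of 15 matrix metalloproteinase genes and 5 higher and 1 lower (median 0.26) of 25 caspase and BCL2 family genes. The ribosomal precursor and noncoding RNA list had 5 higher and 1 lower (median 0.63), the heat shock list 1 higher and 1 lower (median -0.094) and the mitochondrial and integrated stress response list 7 higher and 0 lower (median 0.13). Among named genes, the log2 change without that sample was -2.38 (unadjusted p = 0.0468) for Slc6a3 and -1.29 (unadjusted p = 0.0149) for Neat1. Patj had -1.27 (unadjusted p = 0.00045), and these 3 genes were thus lower with and without it. Nefh had -0.64 (unadjusted p = 0.143), Nefl -0.69 (unadjusted p = 0.0515), Gipr -1.78 (unadjusted p = 0.163), Ptgs2 -1.58 (unadjusted p = 0.225), Olig1 -0.48 (unadjusted p = 0.172) and Sox10 -0.68 (unadjusted p = 0.0817), all with a p above 0.05 without it. The same held for Aqp4 with -0.50 (unadjusted p = 0.0685), Atp1b2 with -0.73 (unadjusted p = 0.0537), Crh with 1.52 (unadjusted p = 0.064), Gap43 with 0.58 (unadjusted p = 0.0719), Igf1r with 0.63 (unadjusted p = 0.0683) and Sostdc1 with 0.75 (unadjusted p = 0.0756). It also held for Rars2, Rora and Stip1, with log2 changes of 0.46 (unadjusted p = 0.103), -0.58 (unadjusted p = 0.169) and -0.41 (unadjusted p = 0.0804).

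Genes at the top of the blocked 6-sample fit that were not described above were higher. Lgals1, the galectin-1 gene, stood at 12.7, 6.52 and 3.97 CPM in Control, 3.91, 6.15 and 7.12 in HFD and 42.5, 37.6 and 17.4 in HFD+Mino. Rps29 stood at 75.9, 55.8 and 31.1 CPM in Control, 119.6, 156 and 110.2 in HFD and 263, 215 and 71.7 in HFD+Mino. The list medians by sample set the groups side by side. HFD+Mino replicate 3 was the HFD+Mino sample nearest to 0 for the cytosolic ribosomal, mitochondrial, proteasome and synaptic lists. For the ependymal list it was close to the other HFD+Mino samples (1.21, 1.26 and 1.05). The HFD samples stood at 1.84, 1.29 and 1.02 for that list, and Control replicate 3 at 0.79.

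**Figure D5:**
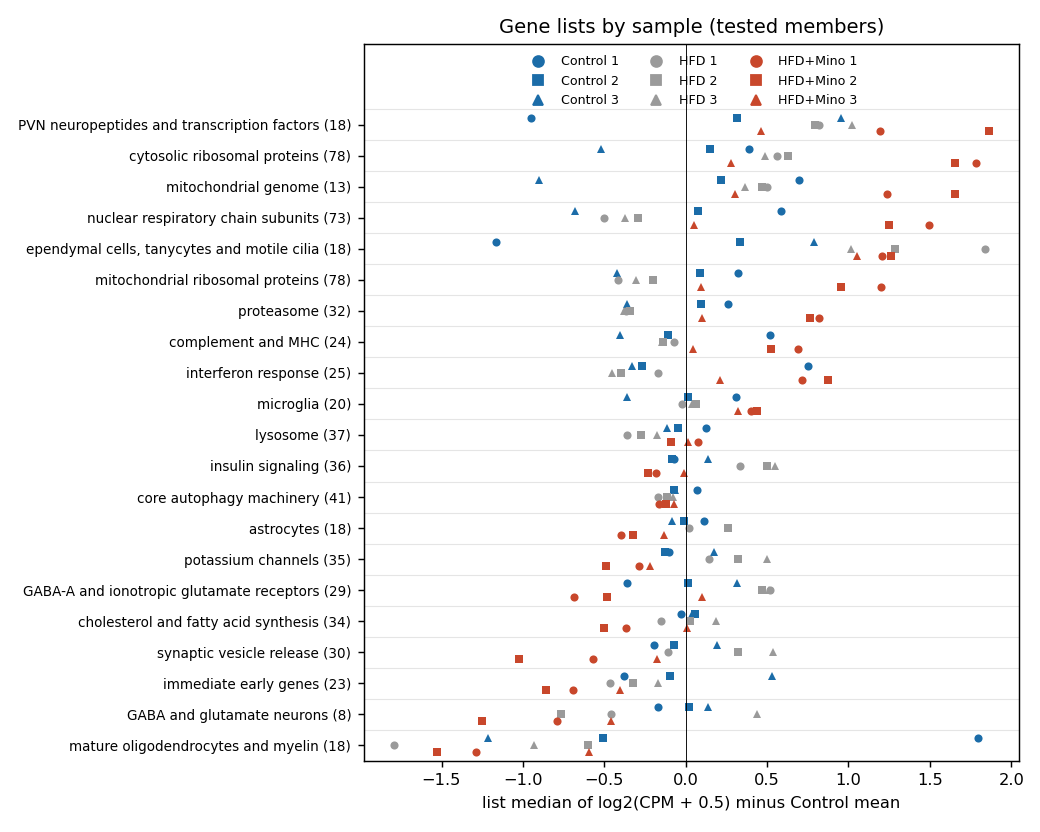
Median of log2(CPM + 0.5) minus the Control mean over the tested members of 21 gene lists (number of members in parentheses); each point is 1 of the 9 samples. HFD+Mino replicates 1 and 2 lie right of the Control samples for the ribosomal, mitochondrial and proteasome lists, while Control replicate 1 alone stands at 1.79 for myelin and at -1.16 for the ependymal list.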

How the data were processed

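Bulk RNA sequencing counts from PVN punches were analysed, with replicate numbers as the labels give them. Libraries were made with a SMARTer low-input kit and Nextera XT. The authors aligned reads to mm10 with HISAT2 and assigned them with featureCounts; tool versions are not given in the sources used here. The authors deposited unnormalized counts of 27179 genes, 958 of them without a symbol, and 0 columns were left unused. Counting by strand and of reads with several positions is not given in the sources used here. Reads carry no molecular identifiers, and no replicate pair of Control or HFD+Mino was close enough to be 1 library deposited again (chi-square over its degrees of freedom at least 94.8).

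Counts were tested with edgeR 4.0.16 in R 4.3.3 (filterByExpr, TMM, quasi-likelihood) in 1 fit of all 9 samples with a mean per group and the contrast HFD+Mino minus Control. Genes were called at a Benjamini-Hochberg FDR under 0.01 and at least 1.5-fold. Values in CPM were computed from TMM-scaled libraries, and sample medians on log2(CPM + 0.5). P-values refer to the spread between mice. Alternatives used DESeq2 1.42.0, limma 3.58.1 and the other settings named in the text. The code was tested on simulated data.

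Replicate numbers were checked for pairing: deviations from group means correlated at 0.194, 0.240 and 0.395 for equal numbers and from -0.234 to 0.063 for unequal ones. Equal numbers were therefore also fitted as pairs, on the counts alone, since the labels name no shared litter, batch or day. Deviations within a group cancel out, so positive values for equal numbers push those for unequal numbers below them. The check used the same counts as the fits and cannot decide whether samples were processed in pairs.

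Positions and promoters came from RefSeq (GRCm38.p6), and GENCODE M21 gave exon length and GC content, known for 90.1% of tested genes. Exon length was the union of all exons of a gene over its transcripts, and GC content was that of the longest transcript. Leading genes had a symbol that is no predicted-gene name and a mean of at least 5 CPM in a group. They were the 8 higher and 8 lower with the smallest p and no overlap and the 5 and 5 with the largest such change. The 8 and 8 with the smallest FDR in the 6-sample blocked fit were added. Up to 4 members per list by p, and Aif1, cytokine and sex genes, were named without that minimum. The comparison, the 39 gene lists and the naming rule were chosen with earlier results of these data known. Some named genes are not reported here.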

Additional observations from a re-analysis of the deposited data

How the results depend on the processing

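The planned test called 0 genes, as did RLE size factors, a mean count of at least 50, limma voom with quality weights, the 6 samples alone and removal of the length or the GC trend. DESeq2 called 271 genes (204 higher, 67 lower), the likelihood ratio test 106 (77 higher, 29 lower) and the fit without a filter 1. With the replicate block, the 6-sample and 9-sample fits called 0, and the block on Control and HFD+Mino inside the 9-sample fit called 551 (465 higher, 86 lower). Leaving out 1 sample gave from 0 to 1120 calls (from 0 to 718 higher and from 0 to 402 lower), all of them without HFD+Mino replicate 3. Genes at an unadjusted p under 0.05 numbered 3697 in the planned test, 2367 in the 6 samples alone, 5781 with the block inside the 9-sample fit, and from 2061 to 6498 when 1 sample was left out. In all, 94 of 112 alternative values of these counts were within 1.5 times the planned value. For the called genes the planned value was 0, so there this only means 0 again and does not measure stability. With an FDR under 0.1, or without the fold threshold at an FDR under 0.05, the planned test could only call 0, since its smallest FDR was 0.132. The fit without mitochondrial genome and ribosomal precursor genes also called 0 and gives no value for the mitochondrial genome list.

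Among 186 named genes, 7 changed sign in at least 1 setting. With the length trend removed, in the planned fit, the 6-sample block and the 9-sample block, the log2 change became -0.12, -0.20 and -0.19 for Hba-a1, -0.33, -0.34 and -0.32 for Hba-a2, -0.056, -0.062 and -0.051 for ATP6, and -0.15, -0.18 and -0.17 for C1qa. Alas2, a heme synthesis gene of red cells, became 0.34 with voom and ranged from -1.31 to 0.38 when 1 sample was left out, the highest without Control replicate 1. Kdm5d, a Y-linked gene, became 0.17 with voom, 0.11, 0.073 and 0.066 with the length trend removed in the same 3 fits, 0.0036 with the GC trend removed, and ranged from -0.27 to 0.15 when 1 sample was left out, above 0 in 3 of those fits. Il6 became -2.61 with voom, -0.37 and -0.54 with the 9-sample block without and with the length trend removed, and ranged from -5.78 to 2.07 when 1 sample was left out, the lowest without HFD+Mino replicate 2. The cause was not tested. With 3 samples a group, and 1 Control sample nearly without vasopressin and oxytocin counts, a missed threshold does not show that a gene was alike in both groups, and genes under a few CPM have little depth behind them.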
